A study of Homo sapiens with 6 samples.

Results

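Insulin-like growth factors (IGFs) signal through a small set of receptors and are held in check outside the cell by binding proteins, and 10 genes of this system were followed across 6 RNA-seq libraries of DU145, a long-established line of human prostate cancer cells. The genes encode 6 IGF binding proteins (IGFBP2, IGFBP3, IGFBP4, IGFBP5, IGFBP6 and IGFBP7), 3 receptors (IGF1R, IGF2R and INSR) and the protease PAPPA, out of 60623 gene IDs in the deposited tables. They were selected by gene symbol, and the set was chosen from the fold changes already seen in this same comparison, so the changes of the 10 genes with treatment are given as a description and not as a test. All cells carried the unmodified (WT) genotype and grew in RPMI-1640 with fetal bovine serum. In 3 libraries the cells had received only DMSO, the solvent, and in the other 3 they had been exposed for 24 h to CCS1477 at 1 µM. CCS1477, or inobrodib, is an inhibitor of the bromodomains of p300 and CBP, a pair of acetyltransferases that act at enhancers and promoters. The labels do not say whether the replicates were separate cultures, so the spread between libraries may be technical, and DU145 is 1 cell line, so nothing here extends to other cells. In bulk RNA, fewer cells that make a transcript and less of it per cell cannot be told apart.

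IGF ligands bind the IGF1 receptor, a tyrosine kinase that signals through the substrates IRS1 and IRS2 to PI3K and AKT, and also the closely related insulin receptor. The IGF2 receptor, which is also the cation-independent mannose 6-phosphate receptor, carries IGF2 to lysosomes and does not signal as a kinase. IGF binding proteins sequester the ligands, and proteases release them again: PAPPA cuts IGFBP4 and IGFBP5, and the glycoproteins STC1 and STC2 inhibit PAPPA. IGFBP3 is the main carrier of IGFs in blood, and IGFBP6 prefers IGF2.

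Library totals ran from 8286880 (DMSO 3) to 11956734 counts (DMSO 1), and levels are given as CPM, counts scaled to the normalised library total. Pairs of libraries were compared by chi-square per degree of freedom over well-counted tested genes, a measure that also grows with counts. It was 8.08 to 19.3 between DMSO libraries, highest for DMSO 2 with DMSO 3. Between CCS1477 libraries it was 3.22 to 6.33, and across groups 18.5 to 27.1. The DMSO libraries were thus less alike than the CCS1477 libraries, and the cause was not tested. A detection floor of 3 counts was worth 0.251 to 0.362 CPM and covers counting error only. All 5 epithelial marker genes were abundant (summed level 2127 to 2492 TPM, a transcript abundance scaled by length), although CDH1 had 49.3 to 79.5 TPM in DMSO and 29.4 to 33.7 TPM in CCS1477, and the summed endothelial and leukocyte markers stayed at or below 0.46 TPM. Of the 6 fibroblast markers 3 were at 0 throughout and COL1A1 made up most of the sum, which was 5.81 to 11.2 TPM in DMSO and 4.34 to 5.50 TPM in CCS1477; its part in the results was not tested. A gene was tested if it passed a filter on low counts, and was called higher or lower at an adjusted p below 0.05 (Benjamini-Hochberg, over all 14928 tested genes) in the quasi-likelihood test of edgeR. The calls were 1079 higher (7.23%) and 1597 lower (10.7%), or 17.9% in all, and with scaling by library size alone they were 1458 higher and 1361 lower.

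Upstream sequences of the 3 genes that fell by over 2-fold are shown with that of IGF2R, which had overlapping groups, as a gene of the set with a log2 fold change near 0. Each is the 250 bases before the RefSeq start, on the coding strand in GRCh38.p14, with matches on either strand to the GC box (GGGCGG), the CCAAT box (CCAAT) and the TATA box (TATAAA) in capitals. IGFBP3 lies at chr7:45921273-45921522 (minus strand), IGFBP4 at chr17:40443200-40443449 (plus strand), PAPPA at chr9:116153541-116153790 (plus strand) and IGF2R at chr6:159968832-159969081 (plus strand); the IGFBP3 window overlaps 2 exon bases of its gene in GENCODE 29.
IGFBP3: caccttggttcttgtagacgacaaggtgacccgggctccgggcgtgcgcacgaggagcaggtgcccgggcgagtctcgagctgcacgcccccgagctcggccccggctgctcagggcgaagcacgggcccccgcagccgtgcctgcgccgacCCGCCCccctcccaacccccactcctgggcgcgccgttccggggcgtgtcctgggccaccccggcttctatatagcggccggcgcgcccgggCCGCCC
IGFBP4: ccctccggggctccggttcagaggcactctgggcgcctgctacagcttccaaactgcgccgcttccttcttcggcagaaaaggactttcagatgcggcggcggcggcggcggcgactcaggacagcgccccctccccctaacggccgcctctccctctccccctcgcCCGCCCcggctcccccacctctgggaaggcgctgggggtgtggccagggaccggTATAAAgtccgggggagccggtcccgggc
PAPPA: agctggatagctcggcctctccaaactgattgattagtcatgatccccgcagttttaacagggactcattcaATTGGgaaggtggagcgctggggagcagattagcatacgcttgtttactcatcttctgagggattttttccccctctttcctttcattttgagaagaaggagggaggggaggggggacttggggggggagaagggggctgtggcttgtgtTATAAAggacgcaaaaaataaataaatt
IGF2R: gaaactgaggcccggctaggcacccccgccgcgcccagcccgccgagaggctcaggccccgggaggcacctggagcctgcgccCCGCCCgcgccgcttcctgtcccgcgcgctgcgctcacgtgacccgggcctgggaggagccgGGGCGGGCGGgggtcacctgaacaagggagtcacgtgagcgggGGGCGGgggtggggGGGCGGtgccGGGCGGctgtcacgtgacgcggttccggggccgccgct

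Of these 4 windows that of PAPPA was the least rich in G and C, at 48.0% with 5 CpG, and held a TATA box and a CCAAT box but no GC box. That of IGFBP4 held 1 TATA box and 1 GC box at 71.6% GC, that of IGFBP3 held 2 GC boxes at 76.0% GC with 32 CpG, and that of IGF2R held 6 GC boxes, of which a pair overlap, at 79.2% GC with 33 CpG. The windows of IGF1R and IGFBP6, both called lower, held 81.2% and 61.2% GC. That of INSR, not called, held 78.4%, and the 3 entries of IGFBP2, not called, held 56.4% to 69.2%. Whether GC content goes with the change was not tested. Over 35116 RefSeq windows of the same length, 42.6% held a GC box, 32% a CCAAT box and 10.7% a TATA box, and the median GC content was 58.0%. Also searched, on both strands, were an AP-1 site (TGANTCA), in 6.57% of all windows, and a TEAD site (CATTCC), in 11.9%. Neither stood in these 4 windows. Among the other genes of the set, a TEAD site stood in the windows of IGFBP6, called lower, and IGFBP5, not tested. These are letter matches in a short window and say nothing about which factors bind. Of the 10 genes, 9 had an entry in the RefSeq table.

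Levels of different genes were set side by side in TPM, which are per length. Under DMSO the highest means were those of 3 binding proteins. IGFBP6 stood at 91.1 ± 9.46 TPM, IGFBP3 at 71.3 ± 26.3 TPM and IGFBP4 at 68.3 ± 9.90 TPM (SD, n = 3). The ranges of IGFBP6 and IGFBP3 overlapped, as did those of IGFBP3 and IGFBP4, so neither neighbouring pair was ordered beyond the spread between libraries, while all IGFBP6 values lay above all IGFBP4 values. IGF2R followed at 43.1 ± 5.91 TPM, then IGF1R at 21.3 ± 7.87, IGFBP2 at 11.3 ± 0.616 and INSR at 3.43 ± 0.311 TPM, each with a range that did not overlap the next. The range of IGF2R (36.9 to 48.6 TPM) also overlapped that of IGFBP3 (42.3 to 93.7 TPM), so this pair was not ordered beyond the spread. PAPPA was low, at 1.25 ± 0.263 TPM, and its range overlapped that of IGFBP7. With CCS1477 the order of mean levels became IGFBP6, IGF2R, IGFBP4, IGFBP2, IGFBP3, IGF1R, INSR, IGFBP7, PAPPA and IGFBP5. In that order the ranges of IGFBP2 and IGFBP3, of IGFBP3 and IGF1R, and of IGFBP7 and PAPPA overlapped, so these neighbours were not ordered beyond the spread.

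**Figure D1:**
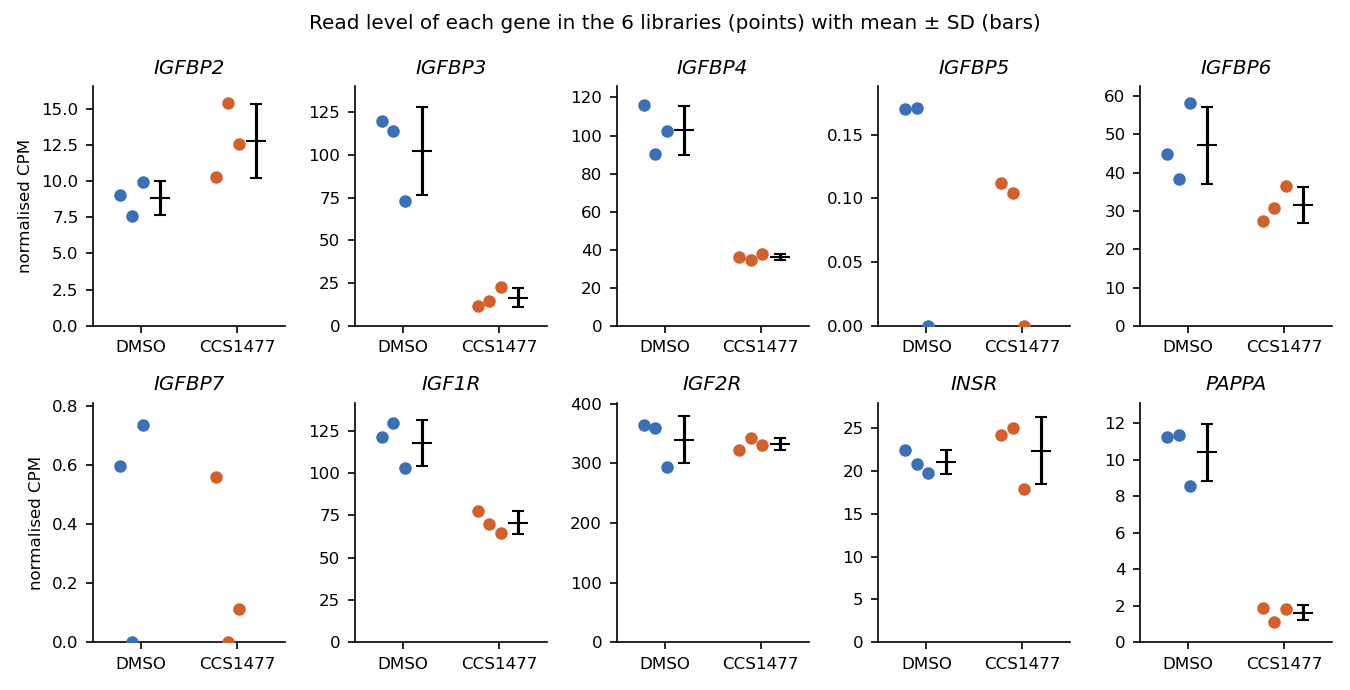
Normalised CPM (y axis, from 0, a separate scale for each gene) of the 10 genes in 3 DMSO (blue) and 3 CCS1477 (orange) libraries; points are libraries 1, 2 and 3 from left to right, and bars are mean ± SD (not drawn for IGFBP5 and IGFBP7, which had at most 7 counts in a library). The CCS1477 points of IGFBP3, IGFBP4, IGFBP6, IGF1R and PAPPA lie below all DMSO points of the same gene.

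After CCS1477, IGFBP3, IGFBP4 and PAPPA were each lower by over 2-fold, IGF1R and IGFBP6 were lower by smaller amounts, and no gene of the set was called higher. Of the 8 genes that passed the filter on low counts, 5 were called lower, 0 higher and 3 neither, beside 10.7% of all tested genes called lower and 7.23% called higher. The 3 lower by over 2-fold (IGFBP3, IGFBP4 and PAPPA) stand beside 3.07% of all tested genes. In normalised CPM the groups did not overlap for 5 genes in the lower direction (19.3% of all tested genes) and for 1 gene, IGFBP2, in the higher direction (16.5%, and 35.9% in either direction). Since this contrast chose the set, nothing is read from these counts. Each of the 8 had at least 11 counts in every library, and the 2 that did not pass the filter, IGFBP5 and IGFBP7, were near 0 in both groups.

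PAPPA (chromosome 9, 116153791 to 116402321), the metalloprotease that frees IGF from IGFBP4, had 132, 133 and 70 counts in DMSO libraries 1, 2 and 3 and 17, 11 and 16 in CCS1477 libraries 1, 2 and 3. Normalised for depth these were 11.2, 11.3 and 8.58 CPM against 1.90, 1.14 and 1.82 CPM. The highest CCS1477 library lay far below the lowest DMSO library. The means were 10.4 ± 1.57 and 1.62 ± 0.418 CPM (SD, n = 3), a log2 fold change of -2.68 ± 0.27 (SE), or 6.41-fold lower. On the log2(TPM + 1) scale the log2 difference was -0.90, because the TPM values, 0.95 to 1.42 in DMSO and 0.14 to 0.24 in CCS1477, are small beside the added 1.

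The antisense gene PAPPA-AS1 (chromosome 9, 116398157 to 116400606, opposite strand) lies inside PAPPA, and all 2450 of its exon bases in GENCODE 29 are also exon bases of PAPPA. It had 29, 21 and 16 counts in DMSO and 3, 1 and 0 in CCS1477, and was lower (log2 fold change -3.72 ± 0.67, SE; edgeR's Benjamini-Hochberg adjusted p = 0.00301; -1.03 on log2(TPM + 1)). All CCS1477 counts of PAPPA-AS1 were at or below the floor of 3 counts, so the size of its fold is uncertain. The strandedness of the counting is not given in the sources used here, so reads of the pair cannot be told apart. With both genes' counts summed, PAPPA stood at -2.82 ± 0.25 (SE).

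IGFBP3 (chromosome 7, 45912245 to 45921874, minus strand) had 119.9, 114 and 73.0 CPM in DMSO libraries 1, 2 and 3 and 11.9, 14.6 and 22.6 CPM in CCS1477 libraries 1, 2 and 3. The groups were well apart, although DMSO 3 was the lowest of its group and CCS1477 3 the highest of its own. The means were 102 ± 25.5 and 16.4 ± 5.56 CPM (SD, n = 3), a log2 fold change of -2.65 ± 0.23 (SE), or 6.27-fold lower. Between -2.95 and -2.46 under every alternative setting tried, it remained past the threshold in each.

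IGFBP4 (chromosome 17, 40443450 to 40457725), the main substrate of PAPPA, had 116, 90.1 and 102 CPM in DMSO and 36.0, 34.6 and 37.6 CPM in CCS1477. The 3 CCS1477 values were close together, and all lay below the DMSO values. The means were 103 ± 12.9 and 36.1 ± 1.52 CPM (SD, n = 3), a log2 fold change of -1.51 ± 0.11 (SE), or 2.85-fold lower. Protease and substrate were thus both lower at the RNA level in the same libraries, PAPPA by more than IGFBP4; this difference in size was not tested.

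IGFBP6 (chromosome 12, 53097436 to 53102345), the binding protein with a preference for IGF2, had 44.9, 38.4 and 58.1 CPM in DMSO and 27.3, 30.6 and 36.5 CPM in CCS1477. The groups did not overlap, but DMSO 2 and CCS1477 3 lay close to each other. The log2 fold change was -0.58 ± 0.16 (SE), or 1.49-fold lower. Its call ended on both TPM scales (limma on log2(TPM + 1) and on log2(TPM + 0.1)) and without DMSO 1, DMSO 3, CCS1477 1 or CCS1477 2, where the log2 values were -0.60 to -0.41.

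IGFBP2 (chromosome 2, 216632828 to 216664436) was the binding protein with a higher mean in CCS1477, although it did not pass the threshold. Its values were 9.02, 7.59 and 9.92 CPM in DMSO and 10.3, 15.4 and 12.5 CPM in CCS1477. All CCS1477 libraries lay above all DMSO libraries, with a narrow gap between DMSO 3 and CCS1477 1, and the log2 fold change was 0.53 ± 0.20 (SE). Its neighbour on the opposite strand is IGFBP5 (chromosome 2, 216672105 to 216695549), a substrate of PAPPA, as is IGFBP4. IGFBP5 had 2, 2 and 0 counts in DMSO and 1, 1 and 0 in CCS1477, all below the floor of 3 counts. IGFBP7 (chromosome 4, 57030773 to 57110385, minus strand), a low-affinity relative, had 7, 0 and 6 counts in DMSO and 5, 0 and 1 in CCS1477, and its span overlaps POLR2B on the opposite strand, which had up to 1774 counts. No fold is given for IGFBP5 or IGFBP7.

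Together the 6 binding protein genes held 259.9, 249 and 219 TPM in DMSO libraries 1, 2 and 3 and 106, 115 and 129.96 TPM in CCS1477 libraries 1, 2 and 3. The summed level was thus lower in all CCS1477 libraries, at 117 ± 12.04 against 243 ± 20.9 TPM (SD, n = 3). IGFBP3 made up 19.3% to 37.6% of the sum in DMSO and 7.41% to 13.5% in CCS1477. IGFBP6 made up 33.1% to 46.1% in DMSO and 54.1% to 55.8% in CCS1477, so that its share was larger while its own level was lower. The share of IGFBP2 was 4.30% to 5.44% in DMSO and 11.04% to 17.0% in CCS1477, and that of IGFBP4 was 25.0% to 30.7% and 19.8% to 24.0%. The mean level of IGFBP2 was 11.3 TPM in DMSO and 15.5 TPM in CCS1477, without a call. Its larger share thus also reflects the lower sum.

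**Figure D2:**
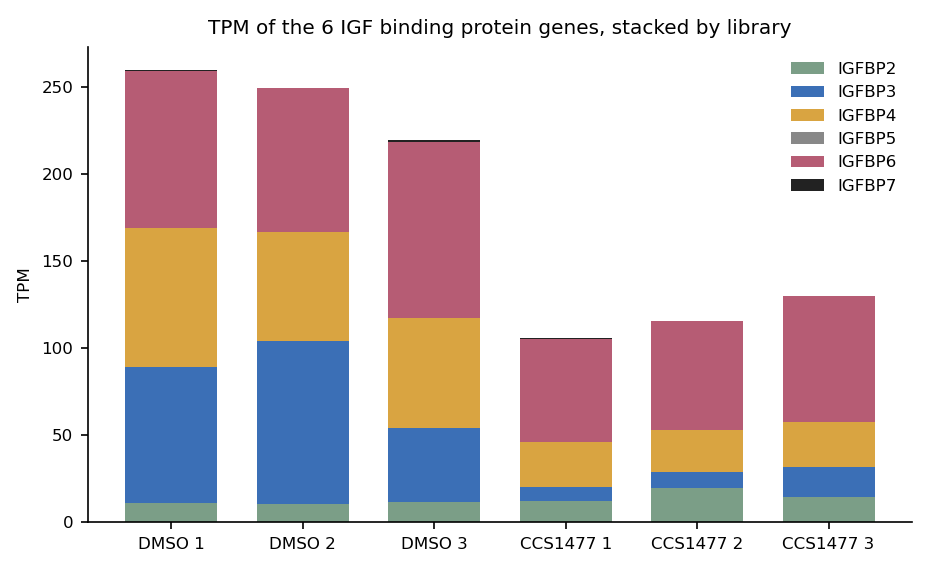
TPM (y axis, from 0) of the 6 IGF binding protein genes, stacked in each of the 6 libraries (x axis). The full height falls from 219 to 259.9 TPM in DMSO to 106 to 129.96 TPM in CCS1477, and the IGFBP3 part (blue) shrinks most; IGFBP5 and IGFBP7 are too low to see in most bars.

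Of the receptors, IGF1R (chromosome 15, 98648539 to 98964530), the signalling receptor for both IGFs, had 121, 129.5 and 103 CPM in DMSO and 77.7, 69.9 and 64.6 CPM in CCS1477. The groups did not overlap, with means of 118 ± 13.6 and 70.8 ± 6.56 CPM (SD, n = 3). The log2 fold change was -0.74 ± 0.11 (SE), or 1.67-fold lower. In TPM the picture was less even: DMSO libraries 1, 2 and 3 stood at 27.5, 23.9 and 12.4 TPM and CCS1477 libraries at 12.1, 8.29 and 11.5 TPM. DMSO 3 was thus next to CCS1477 1 on the TPM scale, and the call ended in limma on log2(TPM + 1) and on log2(TPM + 0.1).

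Counts per unit of TPM, which rise with the transcript length that the authors' quantification assumed for a library, were computed for each gene and divided by the library's median over 9780 well-covered genes. For IGF1R this ratio was 2.90, 3.63 and 4.82 in DMSO and 4.29, 5.57 and 3.66 in CCS1477, a 1.93-fold range from lowest to highest. The values of the 2 groups overlapped, and the range exceeded that of 96.6% of those genes, whose median was 1.20-fold. IGFBP4 and PAPPA had ranges of 1.02-fold and 1.03-fold, and IGFBP3 of 1.29-fold. GENCODE 29 lists 19 transcripts of IGF1R, from 303 to 12235 bases, against 1 transcript of IGFBP4. By its definition, a higher ratio in a library goes with a lower TPM for the same counts. For IGF1R, DMSO 3 had a ratio of 4.82 with 12.4 TPM, and DMSO 1 had 2.90 with 27.5 TPM. Why the ratio of IGF1R varied between libraries was not tested.

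**Figure D3:**
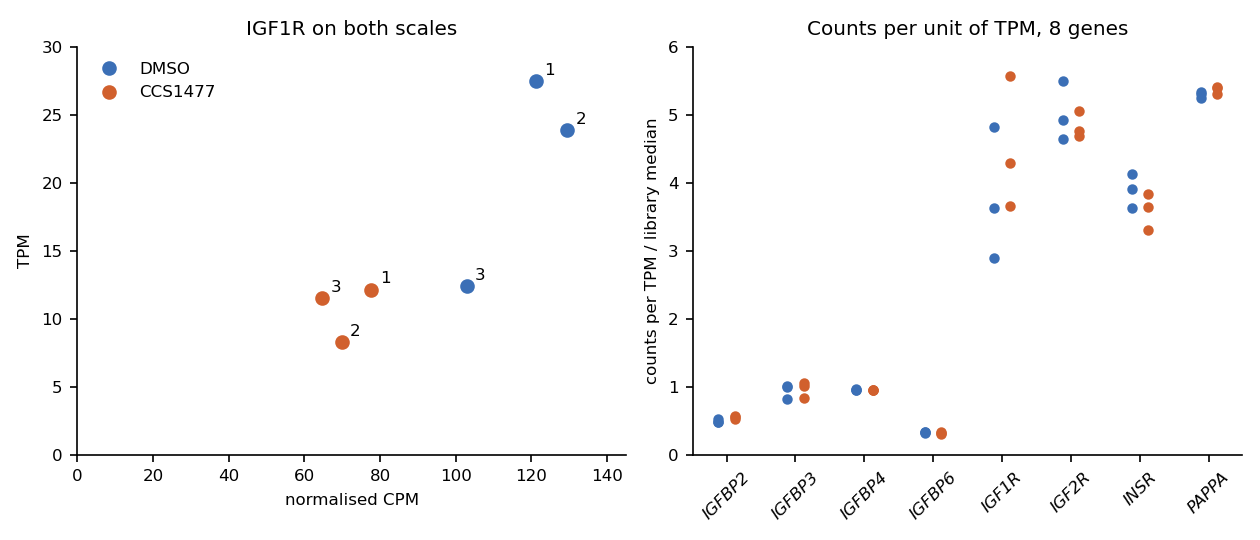
Left, TPM (y axis) against normalised CPM (x axis) of IGF1R in 3 DMSO (blue) and 3 CCS1477 (orange) libraries, numbered by replicate; DMSO 3 has 103 CPM but 12.4 TPM, beside CCS1477 1 with 77.7 CPM and 12.1 TPM. Right, counts per unit of TPM divided by the library median (y axis) for 8 genes (x axis), 1 point per library; IGF1R spreads from 2.90 to 5.57 while PAPPA stays between 5.25 and 5.41.

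IGF2R (chromosome 6, 159969099 to 160113507), the clearance receptor for IGF2, had 365, 359 and 295 CPM in DMSO and 323, 342 and 331 CPM in CCS1477. The groups overlapped, and the log2 fold change was -0.03 ± 0.10 (SE), with a sign that turned under 5 of 13 alternatives. INSR (chromosome 19, 7112255 to 7294414, minus strand), the insulin receptor, had 22.5, 20.7 and 19.7 CPM in DMSO and 24.2, 24.9 and 17.9 CPM in CCS1477, also with overlapping groups (log2 fold change 0.09 ± 0.15, SE). The TPM ratio of IGF1R to INSR was 7.29, 7.10 and 3.93 in DMSO and 2.47, 1.93 and 3.59 in CCS1477. IGF1R remained the more abundant of the pair in every library, by a smaller factor in each CCS1477 library than in any DMSO library.

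The rest of the pathway was read from 8 lists of other genes, all tested in the same fit. The lists were chosen with earlier results of these data known. The shares of calls in them, here and below, are thus a description and not a test. Of 138 listed genes present, 104 were tested, of which 8 were higher (7.69%), 29 were lower (27.9%) and 67 did not pass, with a median log2 fold change of -0.14 against -0.003 over all tested genes. Over all tested genes 7.23% were higher, close to the share of the lists, and 10.7% were lower. The ligands were hardly detected: IGF1 had at most 2 counts in a library, INS 0 counts throughout, and IGF2 5, 2 and 1 counts in DMSO and 10, 2 and 2 in CCS1477. IGFBP1 was at 0 in each library, IGFALS, a partner of circulating complexes, had at most 3 counts and the receptor-like kinase INSRR at most 1. The only member of this list with enough counts to be tested was IGFBPL1, an IGFBP-like protein, which had a mean of 40.1 ± 3.97 in DMSO against 47.3 ± 1.502 CPM with the compound (SD, n = 3) and did not pass (edgeR's Benjamini-Hochberg adjusted p = 0.165).

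Both stanniocalcins, the inhibitors of PAPPA, fell. STC1 had 97.4, 102 and 95.4 CPM in DMSO and 64.0, 48.2 and 52.1 CPM in CCS1477, which gave a log2 change of -0.84 ± 0.11 (SE; edgeR's Benjamini-Hochberg adjusted p = 0.000426). STC2 had 163, 158 and 172 CPM in DMSO and 84.0, 103 and 90.4 CPM in CCS1477, which gave a log2 change of -0.83 ± 0.10 (SE; edgeR's Benjamini-Hochberg adjusted p = 0.000151). The groups of both genes were apart, and both calls held under all 13 alternatives. PAPPA2, a related protease, had 28, 21 and 6 counts in DMSO and 5, 0 and 4 in CCS1477 and was not tested, and PRG2, whose product binds PAPPA in pregnancy serum, was at 0.

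Among other proteases known to cleave IGF binding proteins, 5 of 8 tested genes fell (62.5%) and 0 rose, beside 10.7% lower and 7.23% higher of all tested genes. C1S, a complement protease, fell from 5.17 ± 1.17 to 0.603 ± 0.582 CPM (SD, n = 3; log2 fold change -3.03 ± 0.52, edgeR's Benjamini-Hochberg adjusted p = 0.0021; -1.74 on log2(TPM + 1)). The counts of C1S were 56, 50 and 53 in DMSO and 4, 12 and 1 in CCS1477, the last below the floor of 3 counts. Over the alternatives the log2 fold change of C1S ran from -4.12 to -1.74, with its call kept. The lysosomal protease CTSD stood at -0.51, the membrane protease ADAM9 at -0.39 and ADAM12 at -1.71. ADAM12 lost its call without DMSO 1, DMSO 3, CCS1477 2 or CCS1477 3. CTSD, ADAM9 and ADAM12 all lost their calls on both TPM scales, where ADAM12 stood at -0.37 with 1 added and -0.98 with 0.1 added. Of surface and matrix partners of the binding proteins, 4 of 8 fell (50%) and 1 rose (12.5%), beside 10.7% lower and 7.23% higher of all tested genes. CAV1, the caveolar coat protein, fell from 110.1 ± 9.45 to 43.8 ± 6.42 CPM (SD, n = 3; log2 fold change -1.33 ± 0.12, edgeR's Benjamini-Hochberg adjusted p = 2.6e-05). LRP1, an endocytic receptor, fell by 0.89, ITGA5 by 0.75 and ITGB1 by 0.37 on the log2 scale, and LRP1 and ITGB1 lost their calls on both TPM scales. ITGB3 stood at 0.78 (edgeR's Benjamini-Hochberg adjusted p = 0.0499) and lost its call in DESeq2, with the replicate block, on both TPM scales (0.38 and 0.51), and without DMSO 1, DMSO 3, CCS1477 1 or CCS1477 3.

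Below the receptors, both main docking proteins fell. IRS1 had 88.4, 74.7 and 64.3 CPM in DMSO and 38.2, 33.9 and 33.2 CPM in CCS1477, which gave a log2 change of -1.11 ± 0.13 (SE; edgeR's Benjamini-Hochberg adjusted p = 0.000146). IRS2 had 73.9, 57.9 and 47.2 CPM in DMSO and 20.5, 27.3 and 24.1 CPM in CCS1477, which gave a log2 change of -1.32 ± 0.17 (SE; edgeR's Benjamini-Hochberg adjusted p = 0.000303). For both genes the highest CCS1477 library lay below the lowest DMSO library. Over the list of substrates, adaptors and negative regulators, 8 of 29 tested genes fell (27.6%), 1 rose (3.45%) and 20 did not pass, beside 10.7% lower and 7.23% higher of all tested genes. The receptor phosphatase PTPRF fell by 0.93 and the cytokine-signalling inhibitor SOCS2 by 0.91 on the log2 scale, while the adaptor SH2B1 rose at 0.44, a call that ended on both TPM scales and without DMSO 1, DMSO 2, CCS1477 2 or CCS1477 3.

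In the PI3K, AKT and mTOR list 6 of 34 tested genes rose (17.6%) and 3 fell (8.82%), beside 10.7% lower and 7.23% higher of all tested genes, with a median log2 fold change of 0.09. PDPK1, the kinase that activates AKT, rose from 58.9 ± 1.57 to 87.1 ± 1.43 CPM (SD, n = 3; log2 fold change 0.56 ± 0.09, edgeR's Benjamini-Hochberg adjusted p = 0.00125). On both TPM scales PDPK1 stood at 0.14 and lost its call. TBC1D7, a subunit of the TSC complex that restrains mTOR, rose at 0.77, and EIF4EBP2, a translation repressor, at 0.45. MAPKAP1, a subunit of mTORC2, fell by 0.43 and AKT2 by 0.30 on the log2 scale. MAPKAP1 lost its call on both TPM scales, EIF4EBP2 on these and without DMSO 1, and AKT2 on these, with the replicate block, with scaling by library size and without any 1 library but DMSO 2. Whether this list differs from the others was not tested.

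**Figure D4:**
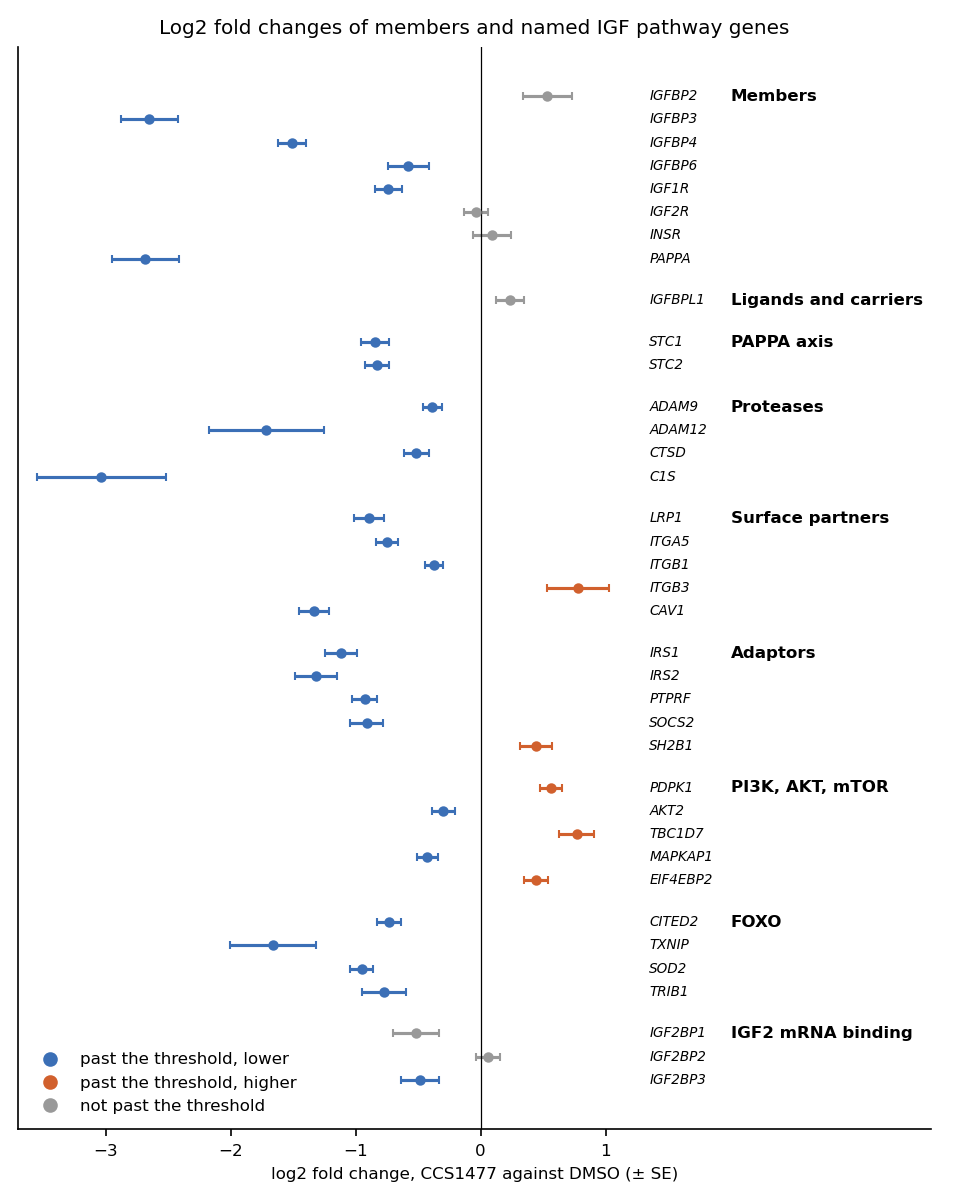
Log2 fold change of CCS1477 against DMSO (x axis, points with SE bars) for the 8 tested genes of the set and the named genes of 8 pathway lists (y axis, grouped); blue is past the threshold and lower, orange past it and higher, grey not past it. PAPPA (-2.68) and IGFBP3 (-2.65) lie with C1S (-3.03) at the left, and orange points lie in the lists of partners, adaptors and PI3K, AKT and mTOR genes.

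The nearest tested genes on either side of the 10 genes, up to 10358 kb away, were read as a view of the surrounding chromosome. Of 18 such neighbours, 4 were lower (22.2%, beside 10.7% of all tested genes) and 0 higher. They were TNS3 beside IGFBP3, TNS4 beside IGFBP4, TNC at 1036 kb from PAPPA and SLC22A3 at 235 kb from IGF2R; SLC22A3 lost its call on both TPM scales, with DESeq2 and without DMSO 1, DMSO 2 or CCS1477 3. The first pair are tensins, adaptor proteins of focal adhesions, and tensin genes lie near binding protein genes on chromosomes 2, 7, 12 and 17.

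TNS3, 1353 kb from IGFBP3, had 92.4, 88.9 and 64.9 CPM in DMSO and 20.8, 17.0 and 19.2 CPM in CCS1477 (log2 fold change -2.11 ± 0.15, SE, edgeR's Benjamini-Hochberg adjusted p = 4.7e-06). TNS4, 18.1 kb from IGFBP4, had 7.49, 5.38 and 4.53 CPM in DMSO and 2.46, 0.208 and 1.48 CPM in CCS1477 (log2 fold change -2.08 ± 0.51, SE, edgeR's Benjamini-Hochberg adjusted p = 0.0147), and lost its call on log2(TPM + 0.1) and without DMSO 1 or CCS1477 3; on log2(TPM + 1) it stood at -1.02. In both cases the groups did not overlap. TNS4 had 22, 2 and 13 counts in CCS1477, and the value of CCS1477 2 lay below the floor of 3 counts. TNS1, 1135 kb from IGFBP2 and 1104 kb from IGFBP5, stood at -0.03 ± 0.35 (SE) and did not pass. TNS2, 33.1 kb from IGFBP6 and chosen after its value was seen, stood at -0.24 ± 0.16 (SE) and did not pass. On log2(TPM + 1) and log2(TPM + 0.1) TNS2 stood at -1.04 and -1.08, also without passing. Only in the pairs of IGFBP3 with TNS3 and of IGFBP4 with TNS4 were both genes called lower. IGFBP6 was called lower while TNS2 was not, and neither IGFBP2 nor TNS1 was called. The match of a binding protein gene with its tensin was noticed in these values, over 4 pairs, and was not tested.

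**Figure D5:**
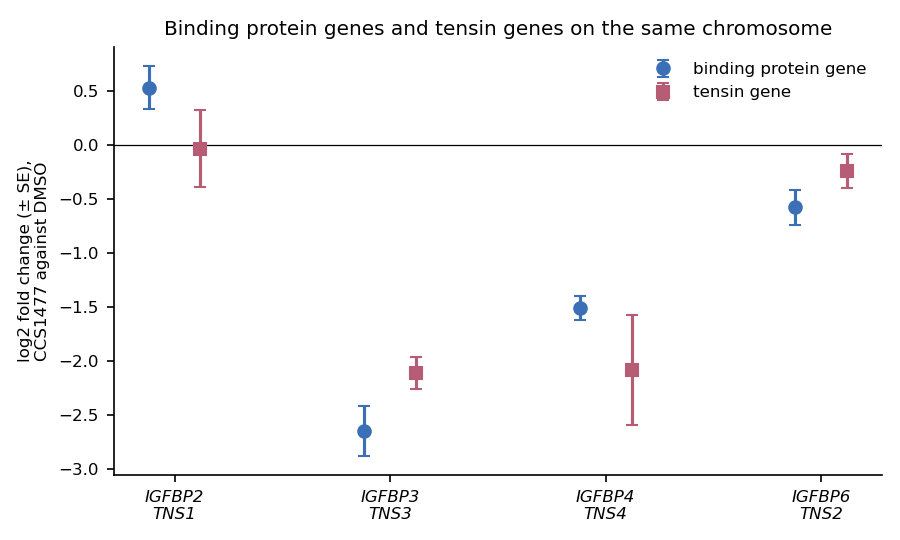
Log2 fold change of CCS1477 against DMSO (y axis, with SE bars) for 4 pairs of a binding protein gene (blue circle) and the tensin gene on the same chromosome (red square). Both genes of the IGFBP3 and TNS3 pair (-2.65 and -2.11) and of the IGFBP4 and TNS4 pair (-1.51 and -2.08) are low, while on this count scale TNS1 stands at -0.03 and TNS2 at -0.24; on log2(TPM + 1) TNS2 is at -1.04.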

How the data were processed

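Per gene and library, the deposited files hold estimated counts without normalization and, in a separate file, TPM. The submitters' processing notes name Trimmomatic 0.39; for aligner, quantifier, build and strandedness the sources used here give nothing. Coordinates are as deposited. For each of the 10 genes, GENCODE 29 (GRCh38) gave the same chromosome as the deposited coordinates, with starts and ends that differed by at most 380 bases. Estimated counts were rounded, filtered with filterByExpr (minimum count 10, minimum total 15), scaled by TMM and compared with edgeR 4.0.16 (quasi-likelihood test, Benjamini-Hochberg over all tested genes), without covariates, in R 4.3.3. CPM use TMM-scaled totals. SEs derive from the test statistic. Alternatives used DESeq2 1.42.0, limma 3.58.1 on log2(TPM + 1) and log2(TPM + 0.1), other scaling, no filter, a threshold of 0.01, a replicate block and leaving out each library; summing PAPPA with PAPPA-AS1 was chosen after seeing the data. The edgeR fit was also run on counts simulated from the gene means, library totals and dispersions of these data. Plots used matplotlib 3.10.9.

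The members and lists were chosen with earlier results of these data known. Text names all members and all ligand and PAPPA-axis genes. From each list it names up to 4 genes with the smallest adjusted p and up to 2 called in the opposite direction. Of the nearest tested neighbours it names those that were called, and TNS1. For members beyond a log2 fold change of 1 it names the 3 genes nearest in pattern.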

Additional observations from a re-analysis of the deposited data

How the results depend on the processing

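Of the 5 genes of the set called lower, IGFBP3, IGFBP4 and PAPPA kept the call under all 13 alternatives, whereas IGFBP6 and IGF1R lost it on both TPM scales, which left 3 called lower on each. Leaving out 1 library gave 4 to 5. IGF2R, never called, turned to 0.014 with library-size scaling, 0.082 and 0.084 on log2(TPM + 1) and log2(TPM + 0.1), and ranged from -0.13 to 0.024 without 1 library, with 0.024 without DMSO 1 and 0.018 without DMSO 2. TNS1, never called, turned to 0.018 with library-size scaling and with the replicate block, and ranged from -0.21 to 0.38 without 1 library, with 0.38 without DMSO 1 and 0.13 without CCS1477 3. Limma on log2(TPM + 1) and on log2(TPM + 0.1) called 293 and 280 of all genes higher and 427 and 410 lower, and of pathway genes 1 higher and 11 lower on each; a threshold of 0.01 left 380 and 852 of all genes and 4 and 19 pathway genes. Leaving out 1 library gave 487 to 1311 higher and 925 to 1772 lower of all genes, and 4 to 10 higher and 20 to 31 lower pathway genes; the 4 higher came without DMSO 1, CCS1477 2 or CCS1477 3. The causes were not tested. The order of DMSO levels held for 8 to 10 of the 10 genes without 1 DMSO library. The replicate block gave 799 higher and 1306 lower genes, 5 lower of the set, and 6 higher and 25 lower pathway genes. Same-numbered libraries did not deviate together (r = -0.087, -0.196 and -0.0067 across genes), so the numbers were not taken as pairs. For libraries of different numbers r ran from -0.187 (DMSO 3 with CCS1477 1) to 0.268 (DMSO 2 with CCS1477 1). Deviations were taken from group means, which ties these values to each other, and a shared batch was not tested. Of 44 named genes past the threshold, 25 remained past it under every alternative and 9 lost the call only on the TPM scales. IGFBP5, IGFBP7, IGF1 and IGF2 had at most 10 counts in a library, too few to be tested.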

Other observations

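Among FOXO factors and targets, which AKT signalling holds down, 6 of 19 tested genes fell (31.6%) and 0 rose, beside 10.7% lower and 7.23% higher of all tested genes. The mitochondrial superoxide dismutase SOD2 had 199.7, 216 and 237 CPM in DMSO and 114, 116 and 108 CPM in CCS1477 (log2 fold change -0.95 ± 0.09, SE, edgeR's Benjamini-Hochberg adjusted p = 3.8e-05). The transcriptional coregulator CITED2, which binds p300 and CBP, stood at -0.73, TXNIP, an inhibitor of thioredoxin, at -1.66 and the pseudokinase TRIB1 at -0.77; TRIB1 lost its call without DMSO 1 or CCS1477 3, and TXNIP and TRIB1 both lost theirs on both TPM scales, where TXNIP stood at -0.99 with 1 added. Among IGF2 mRNA-binding proteins, IGF2BP3 fell by 0.48 on the log2 scale (edgeR's Benjamini-Hochberg adjusted p = 0.0437) and lost its call under 11 of 13 alternatives. IGF2BP1 stood at -0.51 and IGF2BP2 at 0.06, and neither passed.

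For the 3 genes of the set with a change beyond 2-fold, the nearest genes in pattern were found by the root mean square difference of centred log2 CPM over 6 libraries, among 11495 genes. Nearest to IGFBP3 were AQP3, a water and glycerol channel, at a difference of 0.168, C3 at 0.247 and SHOC1 at 0.302. Nearest to IGFBP4 were HAS3, a hyaluronan synthase, at 0.0922, the protease PRSS23 at 0.108 and EFHD2 at 0.114. Nearest to PAPPA were PADI2, an enzyme that converts arginine to citrulline, at 0.177, C3 at 0.195 and ADGRG1 at 0.199. AQP3 went from 50.5 to 8.71 mean CPM and HAS3 from 72.8 to 23.2 mean CPM. These are likenesses over 6 libraries in which the groups themselves differ, and they say nothing of shared function.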
